A study of Mus musculus with 22 samples.

Results

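The comparison described here asked whether loss of Prdm16 changed the left and the right ventricle of the embryonic mouse heart in the same way. It used 16 of the 22 RNA-seq libraries of the series, chosen by their labels alone: every library of an isolated left ventricle (LV) or an isolated right ventricle (RV). All 4 groups were ventricles of C57BL/6 embryos at E13.5, each with 4 libraries. LV cKO and RV cKO carried the conditional Prdm16 knockout (cKO), and LV WT and RV WT were littermate controls, titled WT and given as Mock in the genetic manipulation field. The Cre driver, and with it the cell type that lost the gene, is not given in the sources used here. The design text speaks of pairs of ventricles but does not say that each library is a separate animal, so the p-values measure the spread between these libraries. The measured quantity was the cKO effect on the left (LV cKO over LV WT) minus the cKO effect on the right (RV cKO over RV WT), on the log2 scale. A negative difference means that the left effect was the lower of the pair.

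PRDM16 is a zinc finger protein of the PR domain family that works with co-repressors and co-activators on chromatin and is best known for holding brown fat cells in their identity. In the embryonic ventricle it is found in the compact wall, the dense outer layer of dividing cardiomyocytes, as opposed to the trabeculae, the inner muscle ridges. The left ventricle grows mainly from the first heart field, where TBX5 and HAND1 are active, whereas the right ventricle comes from the second heart field.

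Prdm16 itself (chr4:154316125-154636873 on GRCm38) was lower in every cKO library than in every control of its side. In LV WT it stood at 45.4, 53.9, 47.6 and 56.2 CPM (read counts relative to library size, normalised between libraries by TMM) in libraries 1 to 4, and in LV cKO at 23.4, 21.6, 22 and 22.2 CPM. In RV WT it stood at 38.7, 37.5, 38 and 44.3 CPM and in RV cKO at 25.8, 23.1, 22.8 and 22.2 CPM. The cKO libraries of both sides therefore lay at a like level, while the left controls started 0.36 log2 units above the right ones (edgeR quasi-likelihood F test, adjusted p = 0.00131). The fall was -1.19 ± 0.07 (SE) on the left and -0.75 ± 0.07 on the right, a difference of -0.44 ± 0.10 with an adjusted p of 0.0404. Without RV WT library 2 the adjusted p of that difference was 0.0503, and it stayed under 0.05 in 11 of 30 alternative fits.

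The 16 libraries held 14508722 to 22830716 estimated reads. Myl2, the ventricular myosin light chain, was at 18400 to 30600 TPM (an abundance per length) in all of them, whereas the glial gene Sox10 reached at most 0.104 TPM and the liver gene Alb at most 1.3 TPM. RV WT library 2 stood apart from its group: the mesenchymal gene Postn was at 266 TPM there against 42.0 to 47.6 TPM in the other 3 RV WT libraries, and Meox1 at 25.8 TPM against 1.45 to 1.89 TPM. Its markers of cushion, valve and fibroblast mesenchyme summed to 6431 CPM, against 3183 to 3439 CPM in the other RV controls. Such list sums, here and below, take every listed gene found, tested or not, relative to raw library totals without TMM. Haemoglobin transcripts made up 0.991% to 1.92% of the reads of LV WT, 1.30% to 3.25% of LV cKO, 0.509% to 1.24% of RV WT and 1.13% to 2.24% of RV cKO. The results below are therefore also given without RV WT library 2. In bulk tissue, fewer cells of a type and less RNA per cell cannot be told apart.

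Of 16448 genes tested, 1.43% differed between the ventricles in their cKO effect at an adjusted p under 0.05, and such genes are named called here. The pattern behind these 236 genes was mostly a left one. For 129 genes (54.7%) the cKO effect was called on the left and not on the right, with 89 falling and 40 rising there. Of these 129, 27 also had a called right effect, in the direction of the left one, when RV WT library 2 was left out. For 71 genes (30.1%) both effects were called in the same direction and the left was the larger, with 43 falling and 28 rising. The right side led for fewer genes: 21 (8.9%) had a called effect on the right alone, and 6 moved the same way on both sides but further on the right. The remaining 9 genes moved in opposite directions. The median size of the called differences was 0.45 log2 units, and 35 genes differed by more than 1 log2 unit. This asymmetry came beside a wider left response, with 25.6% of tested genes called for the cKO effect in the left and 10.3% in the right ventricle. Without RV WT library 2 the right share was larger, with 7.12% called as falling and 7.41% as rising there. In that fit 358 of 16638 tested genes were called for the difference, 236 lower and 122 higher on the left.

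**Figure D1:**
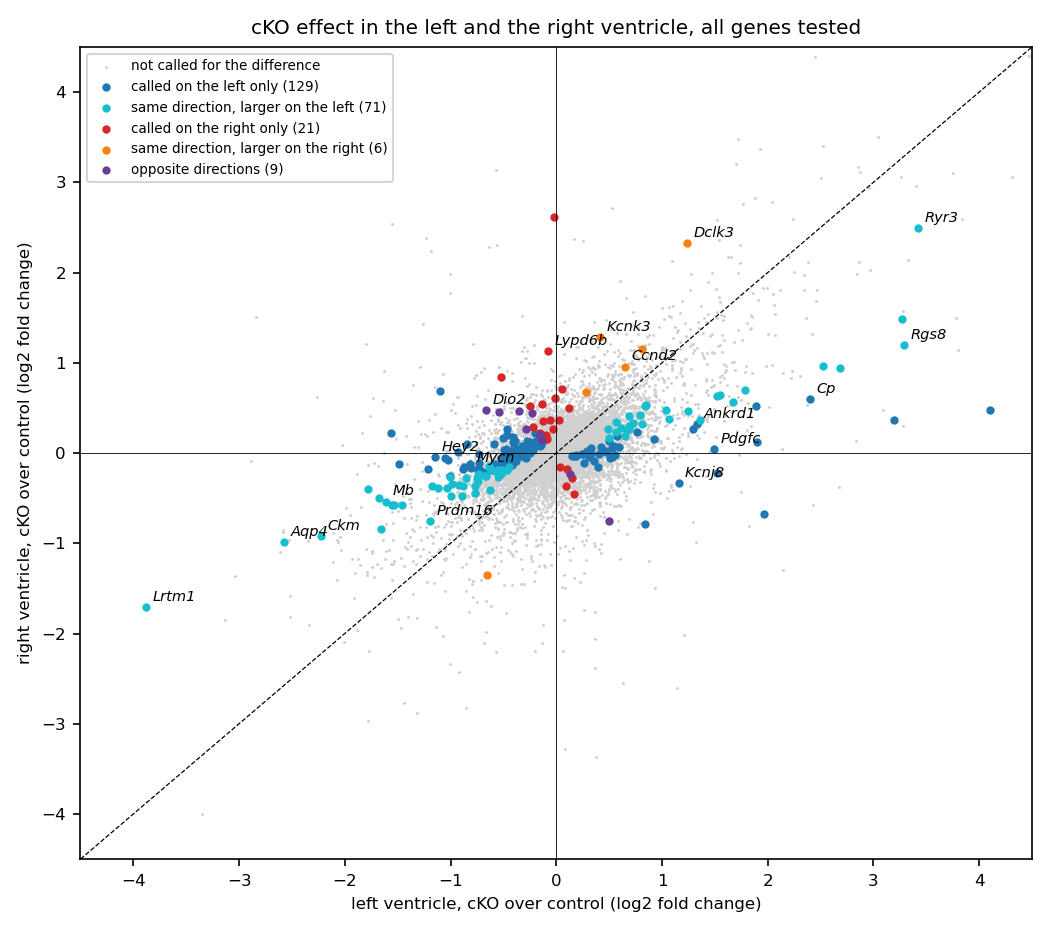
cKO effect of each tested gene in the left (x axis) and right (y axis) ventricle, both as log2 fold change of cKO over control; coloured points are the 236 genes whose effects differed, by pattern, and the dashed line marks equal effects. Most coloured points lie along the horizontal line of no right effect or between it and the dashed line, and the 9 purple points fall in the quadrants of opposite sign.

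The clearest one-sided change was in Hey2 (chr10:30832359-30842801), a Notch and compact wall transcriptional repressor that holds ventricular identity. Hey2 was at 113, 119, 113 and 114 CPM in LV WT and at 56.9, 51.6, 50.4 and 49.1 CPM in LV cKO. Its right-sided values were 137, 113, 133 and 139 CPM in RV WT and at 130.1, 128, 120.4 and 128 CPM in RV cKO. The left groups were far apart while the right groups overlapped. The left effect was -1.14 ± 0.06 and the right effect -0.04 ± 0.06 (adjusted p = 0.732), and the difference of -1.10 ± 0.08 had the smallest adjusted p of all genes, 5.04e-06. Mycn (chr12:12936093-12941914), a proto-oncogene that drives growth of the compact wall, showed the same form. It went from 42.5, 48.4, 45.1 and 43.5 CPM in LV WT to 25.8, 25.6, 26.7 and 24.4 CPM in LV cKO, and on the right from 46.6, 41.3, 41.6 and 46 CPM to 41.6, 39.1, 36.4 and 39.3 CPM. Its difference was -0.65 ± 0.08 (adjusted p = 0.000654), with a right effect of -0.16 that was not called with all 16 libraries (adjusted p = 0.0633) and was called without RV WT library 2 (-0.19, adjusted p = 0.0272).

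The promoters of Hey2 and Mycn are shown as those of compact wall genes that fell further on the left, and that of Unc13c because its window held the most motif matches among those of the genes that moved in opposite directions. Each runs 5′ to 3′ on the gene's strand from 250 bases before to 50 bases after the RefSeq start (GRCm38.p6): chr10:30842734-30843033 (minus strand) for Hey2, chr12:12941787-12942086 (minus strand) for Mycn and chr9:73968988-73969287 (minus strand) for Unc13c. Capitals mark the T-box core AGGTGT and the HAND-type E-box CATCTG, searched on both strands.
Hey2: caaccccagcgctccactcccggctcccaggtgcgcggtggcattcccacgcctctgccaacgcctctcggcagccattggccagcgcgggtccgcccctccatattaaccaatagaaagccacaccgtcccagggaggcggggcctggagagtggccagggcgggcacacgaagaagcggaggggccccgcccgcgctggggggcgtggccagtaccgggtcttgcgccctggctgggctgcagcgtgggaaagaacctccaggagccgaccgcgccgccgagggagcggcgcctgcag
Mycn: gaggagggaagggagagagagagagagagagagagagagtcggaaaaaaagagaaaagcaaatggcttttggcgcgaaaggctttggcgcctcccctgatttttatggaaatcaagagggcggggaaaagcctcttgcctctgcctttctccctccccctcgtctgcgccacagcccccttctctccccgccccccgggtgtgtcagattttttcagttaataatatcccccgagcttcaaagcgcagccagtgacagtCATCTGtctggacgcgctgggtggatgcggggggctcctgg
Unc13c: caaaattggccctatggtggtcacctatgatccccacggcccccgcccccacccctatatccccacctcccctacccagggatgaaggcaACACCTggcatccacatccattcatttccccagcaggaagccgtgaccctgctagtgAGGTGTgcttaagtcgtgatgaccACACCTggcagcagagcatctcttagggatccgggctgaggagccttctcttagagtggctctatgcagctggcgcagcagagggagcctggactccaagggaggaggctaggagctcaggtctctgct
The Hey2 window held neither word, the Mycn window 1 E-box just after the start, and the Unc13c window 3 T-box cores. Of the 8 opposite genes found in the RefSeq table, 3 of 11 promoters held a T-box core, and none of those of Dio2, Acss1, Plpp2, Rab11fip5 and Cd47 did. The 3 belonged to Unc13c and Gse1 alone. Gse1 has 3 promoters there, so the matches do not stand for 3 genes. The T-box core was in 13.7% of all 32851 promoters of the RefSeq table and in 10.9% of those of tested genes. It was in 14.6% of the 185 promoters found for 127 of the 160 genes with a lower left effect, and in 13.6% of the 81 promoters found for 61 of the 76 with a higher one. The E-box was in 17.2% of all promoters, 12.1% of those of tested genes, 14.6% of the lower and 18.5% of the higher group. The estrogen-related receptor motif AAGGTCA was in 4.72%, 3.28%, 3.24% and 2.47% of the same sets. These are matches of letters in a window and were not tested.

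Other genes of ventricular muscle were called as falling on the left and not on the right. Irx4, a ventricle-specific homeobox factor, was at 92.3, 83.6, 82.8 and 85.2 CPM in LV WT and at 61.5, 61, 61.3 and 60 CPM in LV cKO. In the right ventricle it was at 90.7, 73, 86.3 and 99.1 CPM and 89.4, 96.7, 87.3 and 83.5 CPM, with library 2 the lowest of the controls. The difference was -0.53 ± 0.10 (adjusted p = 0.0133). Fhl2, a LIM domain protein of the sarcomere and nucleus, fell from 126 to 158 CPM to 86.1 to 103 CPM on the left and ranged over 114 to 145 CPM and 132 to 147 CPM on the right (difference -0.69 ± 0.11, adjusted p = 0.00276). Tnni3, the cardiac troponin I of the maturing sarcomere and a member of the sarcomere list, went from 569.7 to 608 CPM to 422 to 476 CPM on the left, with overlapping right groups at 507 to 624 CPM and 548 to 624 CPM (difference -0.46 ± 0.08, adjusted p = 0.00956).

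In the list of 10 ventricular cardiomyocyte genes, 3 were called and all 3 were lower on the left, where 0.973% of all tested genes were. All 10 differences were negative, with a median of -0.28 against -0.001 over all genes tested. The median effect was -0.44 on the left and -0.004 on the right. On the left 7 of the 10 fell, against 13.4% of all tested genes that fell and 12.3% that rose there. On the right none fell and 2 rose, against 4.19% and 6.12% of all tested genes. Without RV WT library 2, 4 fell and 2 rose on the right, against 7.12% and 7.41% of all tested genes, and the right median was -0.07. Myl2 belongs to this list and shows how RV WT library 2 bears on it. Myl2 was at 6298, 4405, 5813 and 5724 CPM in RV WT and 5110.0, 4926, 5184 and 5218 CPM in RV cKO. Its difference of -0.40 ± 0.11 was not called (adjusted p = 0.0918), and without library 2 it was smaller but called (-0.30, adjusted p = 0.0222), with a called right fall of -0.22 (adjusted p = 0.00415). The atrial list did not share this form: 1 of 16 genes was called (2 without RV WT library 2) and the median difference was 0.009.

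Compact wall genes as a list were less uniform. Of 13 genes, 4 were called with a lower left effect (Hey2, Mycn, Prdm16 and Ccnd2), against 0.973% of all tested genes. Ccnd2 is there because it rose less on the left. Prdm16 is the gene targeted by the knockout, so its call is no separate evidence on the list. Hey2 was already counted in the ventricular cardiomyocyte list. The median difference was -0.06 and changed sign with length-scaled counts (0.007) and with log2(TPM+1) values (0.048). The median over all genes was -0.004 and 0.05 in those fits. Without RV WT library 2 it was -0.18, with 3 genes called. Of the Notch list, Hey2, counted above as well, and Jag1 were called among 19 genes. Both were lower on the left, where 0.973% of all tested genes were, while the median of the list was 0.07. Jag1, a Notch ligand, went from 25.3 to 28.4 CPM to 19.3 to 19.7 CPM on the left, and ranged over 24.2 to 30.4 CPM in RV WT and 25.4 to 30.6 CPM in RV cKO (difference -0.45 ± 0.10, adjusted p = 0.0295).

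Ckm and Mb, genes of energy and oxygen supply in muscle, fell on both sides and further on the left. Ckm (chr7:19404776-19422841), the muscle creatine kinase that buffers ATP, was at 63.5, 62.1, 75.8 and 87 CPM in LV WT and at 17, 15.2, 14.6 and 15.1 CPM in LV cKO. It was at 201, 212, 277 and 258 CPM in RV WT and at 109.6, 137, 129.7 and 125 CPM in RV cKO. Neither side's groups overlapped, and the right ventricle held more Ckm than the left in both genotypes. The effects were -2.22 ± 0.13 and -0.92 ± 0.11, a difference of -1.30 ± 0.17 (adjusted p = 0.000893). Mb, the oxygen carrier myoglobin, was at 411, 385, 443 and 466 CPM in LV WT and 156, 140.0, 139.9 and 124 CPM in LV cKO. The right libraries held 304, 184, 368 and 377 CPM in RV WT and 217, 181, 225 and 226 CPM in RV cKO. Library 2 was the lowest right control and lay within the range of the RV cKO libraries. With it the difference was -1.07 ± 0.22 (adjusted p = 0.0241), and without it -0.89 (adjusted p = 0.00129).

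Among 40 nuclear genes of oxidative phosphorylation, all 40 had a negative difference, with a median of -0.28, and 4 were called (Cox5b, Cox6a1, Cox7a1 and Cox8a). Over all tested genes 50.2% of the differences were negative and 0.973% were called lower. All 4 called genes encode subunits of cytochrome c oxidase, the last complex of the respiratory chain. Their falls were called on the left alone with 16 libraries, and on both sides without RV WT library 2, where the right effects were -0.18 for Cox5b, -0.19 for Cox6a1, -0.34 for Cox7a1 and -0.12 for Cox8a. Cox7a1 was at 35.1, 31.1, 29.7 and 31.6 CPM in LV WT and 17, 17.3, 14.3 and 14.6 CPM in LV cKO. On the right it was at 35.1, 28.4, 40.3 and 34.4 CPM and 25.8, 28.9, 31 and 30.1 CPM, with overlap through control library 2 (difference -0.75 ± 0.13, adjusted p = 0.00889). The list's summed level was 14070 to 15110 CPM in LV WT and 10680 to 11130 CPM in LV cKO, against 14700 to 17900 CPM in RV WT and 14740 to 15510 CPM in RV cKO. The list moved with RV WT library 2: without it the median difference was -0.20 and 17 genes were called lower. Over all genes tested in that fit, 236 of 16638 were called lower. The number that fell on the right went from 8 to 38 of the 40, against 4.19% and 7.12% of all tested genes. On the left 39 fell, against 13.4%. The cell type markers of that library moved with this result, and their part in it was not tested. The 13 protein genes of the mitochondrial genome had a median difference of -0.06, and edgeR, DESeq2 and limma voom called none, with 0 at an unadjusted p under 0.05.

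Genes of fatty acid use and of the citric acid cycle had mostly negative differences as well. Over all tested genes 50.2% were negative and 0.973% were called lower. Of 31 fatty acid genes, 30 had a negative difference and 5 were called (Cpt1b, Acads, Echs1, Eci1 and Fabp3), with a median of -0.20. On the right 16 of the 31 fell, against 4.19% of all tested genes. Without RV WT library 2 the median difference was -0.14, and 24 of the 31 fell on the right, against 7.12%. Eci1, an isomerase of mitochondrial beta-oxidation, went from 67.7 to 72.2 CPM to 39.6 to 43.9 CPM on the left and from 59.2 to 68 CPM to 52.1 to 56 CPM on the right (difference -0.47 ± 0.07, adjusted p = 0.00176). Acads, the short-chain acyl-CoA dehydrogenase, went from 94.5 to 101 CPM to 66 to 69.4 CPM on the left, while the right groups overlapped at 89.2 to 109.6 CPM and 88.3 to 94.4 CPM. That overlap came through RV WT library 2, the lowest right control at 89.2 CPM. Without it the right fall of Acads was called (-0.21, adjusted p = 0.001). Of 24 citric acid cycle genes, 22 were negative with a median of -0.26, and Idh3g and Mdh2, both dehydrogenases of the cycle, were called (5 genes without RV WT library 2). On the right 8 of the 24 fell with 16 libraries, against 4.19% of all tested genes. Without RV WT library 2 the median difference was -0.19, and 20 of the 24 fell on the right, against 7.12%. The difference was -0.34 ± 0.08 for Idh3g (adjusted p = 0.0392) and -0.35 ± 0.07 for Mdh2 (adjusted p = 0.0226). Leaving out that library, the right fall was called for Idh3g (-0.15, adjusted p = 0.0124) and not for Mdh2 (-0.10, adjusted p = 0.0578).

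Ppargc1a, the co-activator that drives mitochondrial gene programmes and a partner of PRDM16 in brown fat, fell in both ventricles without overlap. It was at 95.5, 111, 114 and 108 CPM in LV WT and 55.3, 60.2, 62.4 and 59.6 CPM in LV cKO. Its right-sided values were 107, 106, 120.3 and 119 CPM and 89.5, 96.9, 93.7 and 93.7 CPM. The left effect of -0.85 exceeded the right effect of -0.27 by -0.58 ± 0.08 (adjusted p = 0.00176), and it was the 1 called gene of 16 mitochondrial regulators (2 without RV WT library 2). In the list of brown fat genes 4 of 11 were called (Dio2, Ppargc1a, Cox7a1 and Cpt1b), all lower on the left, where 0.973% of all tested genes were. The median difference was -0.35. Ppargc1a, Cox7a1 and Cpt1b were already counted in the lists above. Of 27 glycolysis genes Hk1, the hexokinase of the first step, was the 1 called with 16 libraries, and 3 were called without RV WT library 2. Its difference of -0.33 (adjusted p = 0.0404) came with an RV WT library 2 that was low at 415 CPM, and without that library the difference was -0.26 (adjusted p = 0.0031).

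The largest negative differences among genes of at least 2 log2 CPM were in genes of lower abundance. Lrtm1, a leucine-rich repeat membrane protein, was at 1.71, 1.23, 1.89 and 2.18 CPM in LV WT and at 0.0574, 0.169, 0 and 0.219 CPM in LV cKO, 1 library being at 0. In the right ventricle it was at 14.7, 15.1, 16.6 and 20.2 CPM and 4.13, 5.01, 5.95 and 5.33 CPM, so the control right ventricle held far more of it than the left. Its difference of -2.17 ± 0.47 (adjusted p = 0.0305) rests on a left cKO level near 0 and reversed to 0.82 on the log2(TPM+1) scale. Aqp4, a water channel, was at 10.3, 11.8, 12.3 and 14.2 CPM in LV WT and at 1.44, 2.2, 1.93 and 2.57 CPM in LV cKO. The right libraries held 30.4, 25.9, 35.8 and 33.5 CPM and 16.1, 17.9, 14.4 and 14.8 CPM, again without overlap and from a higher right level (difference -1.58 ± 0.20, adjusted p = 0.000844).

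Ky, a protease-like protein needed for muscle maintenance, was called on the left alone, from 7.53 to 9.78 CPM to 2.76 to 3.5 CPM, with overlapping right groups at 10.1 to 13.2 CPM and 8.59 to 12.4 CPM (difference -1.36 ± 0.18, adjusted p = 0.000967). Zdhhc23, a palmitoyltransferase, went from 8.45 to 10.9 CPM to 2.53 to 3.29 CPM on the left and from 7.79 to 10.6 CPM to 5.76 to 7.0 CPM on the right (difference -1.18 ± 0.18, adjusted p = 0.00276). The right effect was called for Zdhhc23 and not for Ky. Igfbp2, an insulin-like growth factor binding protein, was at 48.6, 46.2, 43.6 and 44.6 CPM in LV WT and 21, 26.5, 20.2 and 22 CPM in LV cKO, and at 34.4, 28.3, 25.4 and 33.2 CPM in RV WT and 25.3, 27.4, 31.5 and 30.7 CPM in RV cKO. The left controls were above every other library, and 3 of the 4 left cKO libraries were below every right one (difference -0.95 ± 0.14, adjusted p = 0.00195).

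The 76 genes with a higher left effect, 0.462% of those tested, included growth factors, matrix genes and ion channels. Pdgfc (chr3:81036416-81214040), a platelet-derived growth factor, was at 7.8, 7.18, 7.32 and 7.44 CPM in LV WT and 20.1, 19.8, 22.8 and 21.1 CPM in LV cKO. On the right it was at 8.6, 14.9, 9.16 and 8.07 CPM and 12.8, 10.5, 9.48 and 9.04 CPM, where control library 2 was the highest. The difference was 1.46 ± 0.22 (adjusted p = 0.00276) and 1.21 without that library (adjusted p = 0.000296). Kcnj8 (chr6:142564837-142571614), the pore subunit of a KATP channel that also marks pericytes, was at 4.65, 3.4, 4.86 and 5.37 CPM in LV WT and 9.53, 11.1, 10 and 10.2 CPM in LV cKO. Its right-sided values were 3.55, 3.12, 4.25 and 4.37 CPM and 3.02, 3.47, 2.35 and 3.29 CPM, with overlap. The left rise of 1.16 ± 0.14 stood against -0.33 ± 0.16 on the right (difference 1.49 ± 0.21, adjusted p = 0.00176).

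Nt5e, the ectonucleotidase CD73, was at 5.75, 3.4, 4.82 and 5.16 CPM in LV WT and 16.5, 16.6, 18 and 19.7 CPM in LV cKO, and at 6.83, 13.2, 7.29 and 5.3 CPM in RV WT and 10.3, 8.37, 7.89 and 9.04 CPM in RV cKO. RV WT library 2 was above all other right libraries for this gene. The difference of 1.78 ± 0.30 (adjusted p = 0.00657) became 1.44 without it, and the right effect moved from 0.12 to 0.46. Rgs8, a regulator of G protein signalling, went from 0.56 to 0.904 CPM to 6.31 to 8.45 CPM on the left and from 1.59 to 3.97 CPM to 5.12 to 6.32 CPM on the right (difference 2.10 ± 0.34, adjusted p = 0.00429; 1.73 without RV WT library 2). Cttnbp2, a cortactin-binding scaffold, went from 14.2 to 16.9 CPM to 45.4 to 54.3 CPM on the left and from 7.8 to 13.7 CPM to 13.8 to 14.8 CPM on the right (difference 1.10 ± 0.17, adjusted p = 0.00398; 0.88 without that library). Mesenchymal markers were high in this library as given above, and their part in these values was not tested.

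Several genes rose on both sides and further on the left. Ryr3, a ryanodine receptor of intracellular calcium release, was at 8.76, 7.04, 9.69 and 10 CPM in LV WT and 93, 88.3, 91.3 and 108 CPM in LV cKO. The right libraries held 12.6, 15.8, 16 and 18.4 CPM and 93.8, 91, 76.4 and 93.3 CPM. The cKO libraries of the ventricles reached a shared range from unlike control levels (difference 0.93 ± 0.16, adjusted p = 0.00657). Lrp8, a lipoprotein receptor, went from 2.58 to 4.04 CPM to 13.8 to 20.5 CPM on the left and from 2.73 to 4.64 CPM to 5.52 to 7.57 CPM on the right (difference 1.56 ± 0.26, adjusted p = 0.00485). Lama1, the laminin alpha 1 chain of basement membranes, went from 3.46 to 5.2 CPM to 13.2 to 14.2 CPM on the left and from 2.71 to 4.16 CPM to 4.71 to 7.0 CPM on the right (difference 1.09 ± 0.21, adjusted p = 0.0144).

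Ankrd1, a stretch-responsive cardiac ankyrin repeat protein, was at 369, 421, 557 and 374 CPM in LV WT and 939, 1096, 1277 and 1024 CPM in LV cKO, and at 935, 1077, 1234 and 1113 CPM in RV WT and 1133, 1255, 1615 and 1453 CPM in RV cKO. The left cKO level lay within the range of the right groups, while the left controls were below every other library. The difference was 1.01 ± 0.19 (adjusted p = 0.0133), and Ankrd1 was the 1 called gene of 26 in the wall stress and hypoxia list. Fgf10, a growth factor of the second heart field, was scarce at 0.236 to 0.616 CPM in LV WT and 1.14 to 1.61 CPM in LV cKO, and at 0.773 to 1.34 CPM and 0.647 to 1.2 CPM on the right. Its difference of 1.75 ± 0.39 was called with 16 libraries (adjusted p = 0.0375) and not without RV WT library 2 (adjusted p = 0.0525). Cp, the copper oxidase ceruloplasmin, went from 1.57 to 2.34 CPM to 8.93 to 11.3 CPM on the left, with 1.28 to 2.1 CPM and 1.76 to 2.88 CPM on the right (difference 1.80 ± 0.25, adjusted p = 0.00176).

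Among 34 genes of the axon guidance families, Slit3 and Efnb2 were called, both higher on the left, where 0.462% of all tested genes were. The median difference of the list was 0.11, and 11 of the 34 were negative, against 50.2% of all tested genes. Slit3, a secreted guidance ligand, went from 30.3 to 36.2 CPM to 62.7 to 69.2 CPM on the left and from 23.3 to 25.3 CPM to 29.9 to 37.9 CPM on the right (difference 0.56 ± 0.11, adjusted p = 0.0138). Efnb2, the arterial and endocardial ligand ephrin-B2, went from 66.9 to 69.6 CPM to 95.5 to 111 CPM on the left, with overlapping right groups at 55.2 to 61.7 CPM and 58.2 to 65.8 CPM (difference 0.52 ± 0.07, adjusted p = 0.0013). Mcam, a cell adhesion protein of vessel walls, rose on both sides and slightly more on the left (0.22 ± 0.05, adjusted p = 0.0386).

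Summed markers of 3 kinds of non-muscle cells were higher in LV cKO than in LV WT. The epicardial list (14 tested genes) summed to 401 to 430.0 CPM in LV WT and 496 to 526 CPM in LV cKO, against 335 to 387 CPM in RV WT and 345 to 404 CPM in RV cKO. The 22 endothelial genes summed to 2183 to 2278 CPM in LV WT and 2577 to 2791 CPM in LV cKO, against 2010.0 to 2208 CPM in RV WT and 2267 to 2342 CPM in RV cKO. The 17 immune cell genes summed to 173 to 229.7 CPM in LV WT and 282 to 302 CPM in LV cKO, against 127 to 168 CPM and 180.3 to 279 CPM on the right. So the left cKO libraries stood above the left controls in all 3 sums. Such a gap was not particular to these lists. The trabecular, atrial and collagen sums were also higher in LV cKO without overlap, and the oxidative phosphorylation sums lower. By gene, the left effect rose for 8 epicardial, 11 endothelial and 5 immune genes and fell for 1, 3 and 1. Over all tested genes 12.3% rose and 13.4% fell there. On the right the epicardial sums overlapped, while the endothelial and immune sums of the cKO lay above those of the controls. With 16 libraries no member of these 3 lists was called for the difference by edgeR with TMM, where 4 epicardial, 2 endothelial and 3 immune genes had an unadjusted p under 0.05 and DESeq2 called 1, 1 and 0. With the same libraries and RLE factors or library totals edgeR called 1 endothelial gene, and limma voom called 2 epicardial genes and 1 endothelial gene. Leaving out RV WT library 2, edgeR with TMM called 1 epicardial gene. Their part in the rises above was not tested. Of the 16 smooth muscle and pericyte genes, Kcnj8 and Mcam were called, both higher on the left, where 0.462% of all tested genes were. The median difference of these 16 was 0.06, with 6 negative. Their left sums were 2481 to 2617 CPM in LV WT and 2863 to 2941 CPM in LV cKO. The mesenchyme sums overlapped on the left, at 3332 to 4656 CPM in LV WT and 4088 to 4783 CPM in LV cKO. The left sums of the neural crest and erythroid lists overlapped as well.

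Only 9 genes, 0.0547% of those tested, had called effects in opposite directions. Against them stood 1294 genes with both effects called and the same sign. Dio2 (chr12:90724552-90738438), which activates thyroid hormone, was at 3.9, 4.63, 4.65 and 4.3 CPM in LV WT and 2.47, 2.31, 3.13 and 3.18 CPM in LV cKO. On the right it was at 6.49, 9.22, 6.5 and 9.17 CPM and 10.7, 11.6, 11.1 and 10.2 CPM. It fell by 0.66 on the left and rose by 0.48 on the right with no overlap on either side (difference -1.14 ± 0.19, adjusted p = 0.00657). Acss1 (chr2:150618105-150668500), a mitochondrial acetyl-CoA synthetase, was at 14.4, 13.47, 14.1 and 11.4 CPM in LV WT and 8.61, 10, 8.48 and 9.64 CPM in LV cKO. Its right-sided values were 21.6, 19.4, 24 and 22.5 CPM and 24, 27.8, 33.5 and 34.8 CPM, which touched at the edges (difference -0.996 ± 0.16, adjusted p = 0.00398).

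Unc13c (chr9:73479422-73968966), a priming factor of vesicle release, whose promoter is printed above, was at 8.48, 7.85, 9.3 and 8.29 CPM in LV WT and 6.43, 7.71, 5.92 and 6.52 CPM in LV cKO. The right libraries held 9.21, 9.32, 8.97 and 7.68 CPM and 12.4, 12.8, 11.2 and 12.1 CPM. The controls of the ventricles did not differ in the test (-0.05, adjusted p = 0.735), and the cKO ventricles did (-0.87, adjusted p = 2.94e-06). The effects were -0.35 ± 0.09 and 0.46 ± 0.09, a difference of -0.81 ± 0.13 (adjusted p = 0.00375). Adamts19, a secreted metalloprotease of valve development, was at 97.7, 98.6, 106 and 99.4 CPM in LV WT and 86, 88.2, 79.7 and 90.2 CPM in LV cKO, and at 31.9, 37.2, 29.1 and 26.9 CPM in RV WT and 43.6, 45.5, 40.7 and 40.1 CPM in RV cKO. The left level was above the right in both genotypes, by less in the cKO (difference -0.67 ± 0.11, adjusted p = 0.00398).

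The other members of this group were smaller changes. Plpp2, a lipid phosphatase, had effects of -0.29 on the left and 0.26 on the right, Rab11fip5, an adaptor of recycling endosomes, -0.15 and 0.19, and Gse1, a subunit of a co-repressor complex, -0.14 and 0.15. Cd47, the surface signal that restrains phagocytosis, ran the other way: it was at 30.9, 30.8, 32 and 30.8 CPM in LV WT and 34.5, 35, 34.5 and 32.6 CPM in LV cKO, and at 30.4, 33.1, 35 and 32.2 CPM in RV WT and 28.4, 26.5, 29.1 and 27.4 CPM in RV cKO (difference 0.37 ± 0.06, adjusted p = 0.00714). Epb41l4b, a membrane skeleton protein, rose from 1.94 to 2.17 CPM to 2.35 to 4.0 CPM on the left and fell from 1.27 to 1.78 CPM to 0.74 to 1.06 CPM on the right (difference 1.26 ± 0.26, adjusted p = 0.0241). In 6 of the 9 genes the groups did not overlap on either side. The 9 were chosen for called effects in these same libraries, so this adds no evidence, and the share over all tested genes was not counted. Without RV WT library 2, 14 genes ran in opposite directions: all 9 of these and 5 others, among them Dsc2, Homer2, Meis2 and Tmtc1, names given after their values were seen.

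**Figure D2:**
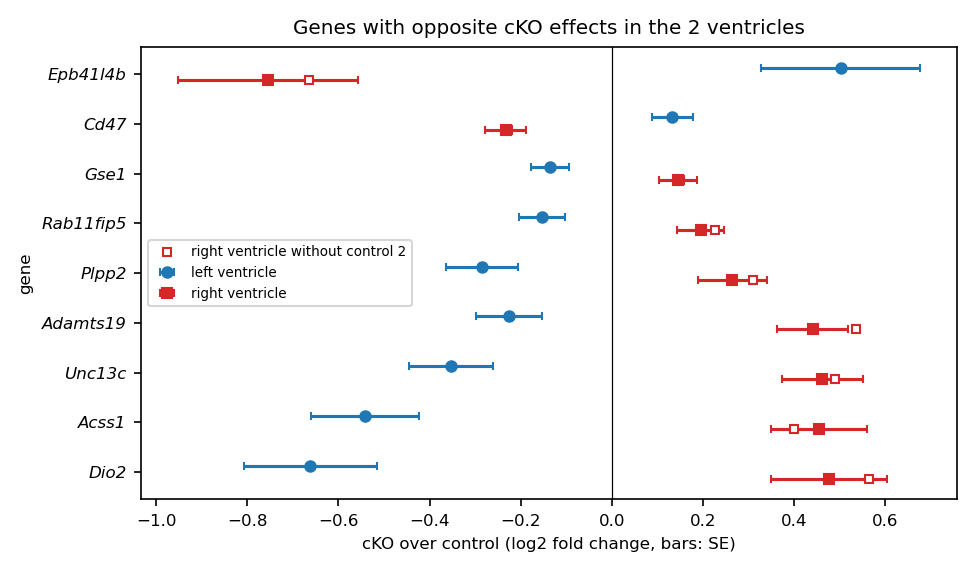
cKO effect (x axis, log2 fold change with SE bars) of the 9 genes with opposite effects, in the left (circles) and right (filled squares) ventricle; open squares are the right effect without RV WT library 2. The open squares stay on the same side of 0 as the filled ones for all 9 genes.

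A smaller set of genes responded more in the right ventricle. Dclk3 (chr9:111439081-111489118), a doublecortin-like kinase, was at 5.47, 6.19, 5.51 and 5.32 CPM in LV WT and 12.9, 13.7, 13.2 and 13.4 CPM in LV cKO. On the right it was at 1.44, 1.19, 1.35 and 1.93 CPM and 7.92, 6.77, 7.71 and 7.31 CPM. It rose on both sides without overlap, by 1.24 ± 0.10 on the left and 2.33 ± 0.12 on the right (difference -1.09 ± 0.15, adjusted p = 0.00176). Kcnk3 (chr5:30588170-30625271), the potassium channel TASK-1 of atrial muscle, was at 98.1, 103, 116 and 100.1 CPM in LV WT and 123, 145, 151 and 139 CPM in LV cKO. Its right-sided values were 67, 53.1, 71.9 and 66 CPM and 130.3, 157, 177 and 165 CPM. The left controls were above the right ones and the cKO libraries overlapped (difference -0.87 ± 0.14, adjusted p = 0.00398).

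Spon1, a secreted matrix protein, was at 198 to 210.4 CPM in LV WT and 349 to 360.2 CPM in LV cKO, and at 176 to 182 CPM in RV WT and 374 to 418 CPM in RV cKO. The order of the ventricles turned over between the genotypes, left above right in controls and right above left in the cKO (difference -0.34 ± 0.05, adjusted p = 0.00195). Ccnd2, cyclin D2 of the G1 phase, was at 463, 488, 475 and 459 CPM in LV WT and 734, 751, 717 and 754 CPM in LV cKO, and at 459, 423, 479 and 450.1 CPM in RV WT and 879.7, 974, 812 and 851 CPM in RV cKO. The rise was called on both sides, but its difference of -0.31 ± 0.07 (adjusted p = 0.0389) turned to 0.08 with length-scaled counts and to 0.16 on the log2(TPM+1) scale.

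Emp2, a membrane protein of the tetraspan type, was called on the right alone. It was at 47.5, 48.2, 45.6 and 47 CPM in LV WT and 46.7, 41.9, 43.3 and 48.5 CPM in LV cKO, and at 41.9, 40.6, 42 and 42.7 CPM in RV WT and 53.4, 55.4, 52.1 and 54.7 CPM in RV cKO. The left groups overlapped and the right groups did not (difference -0.43 ± 0.06, adjusted p = 0.00176). Lypd6b, a GPI-anchored Ly6 family protein, ranged over 5.51 to 7.12 CPM and 5.31 to 7.0 CPM on the left and rose from 1.28 to 2.15 CPM to 3.64 to 5.64 CPM on the right (difference -1.20 ± 0.25, adjusted p = 0.0219). Bmpr1a, a type I BMP receptor, fell on the right alone from 162 to 172 CPM to 145 to 154 CPM and was at 146 to 158 CPM and 153 to 161 CPM on the left (difference 0.20 ± 0.05, adjusted p = 0.0466). That difference was called in 10 of 30 alternatives. Bmpr1a was the 1 called gene of 34 in the TGF-beta and BMP list, in which 2 were called without RV WT library 2.

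The same 16 libraries also give the left-right difference within each genotype, which is another view of the values above and no separate test. Among the 236 called genes, 110 (46.6%) differed between the ventricles in the cKO and not in the controls, against 17.6% of all tested genes. Of these 110, 75 were higher on the right in the cKO and 35 higher on the left. Another 35 (14.8%) differed in the controls and not in the cKO, as Kcnk3, Prdm16 and Ryr3 did. A further 73 kept the higher side, and 18 changed it, among them Mb, Igfbp2, Spon1, Nt5e and Emp2. In all tested genes 19 changed the higher side.

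Genes known to mark the left or right ventricle were, with 1 exception, not called. Tbx5, the first heart field T-box factor, was at 88.2 to 95 CPM in LV WT and 147 to 156 CPM in LV cKO, and at 22.3 to 36.8 CPM in RV WT and 46.3 to 68.7 CPM in RV cKO. Its difference was -0.17 ± 0.17 (adjusted p = 0.724). Nppa, the natriuretic peptide of trabeculae and atria, went from 2570.0 to 3425 CPM to 5905 to 6606 CPM on the left and from 946 to 1904 CPM to 2343 to 3588 CPM on the right, a difference of -0.14 ± 0.24 (adjusted p = 0.861). Both rose on each side, and neither difference passed the test, which does not show that the rises were equal.

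Hand1, a left ventricular bHLH factor, was at 55.7 to 64.3 CPM in LV WT and 54.5 to 58.4 CPM in LV cKO, against 12.5 to 16.7 CPM and 9.62 to 14.4 CPM on the right. Hand2, its right-sided relative, ranged over 74.4 to 87.3 CPM and 86.3 to 93.5 CPM on the left and 80 to 115 CPM and 85.6 to 104 CPM on the right. Cited1, a transcriptional co-regulator, ranged over 387 to 482 CPM and 387 to 431 CPM on the left and 230.5 to 329.8 CPM and 296 to 358 CPM on the right. For all 3 genes the cKO and control ranges overlapped on both sides. The differences were 0.07 ± 0.14 for Hand1, 0.05 ± 0.13 for Hand2 and -0.24 ± 0.14 for Cited1. No member of the left ventricle list (8 tested genes) was called by edgeR, with 2 at an unadjusted p under 0.05 and 2 called by DESeq2. Fgf10 was the 1 called gene of 10 of the right ventricle and outflow tract, and that call was lost without RV WT library 2.

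Cell division genes had small and mostly negative differences, where 50.2% of all tested genes had a negative one. All 23 genes of mitosis and cytokinesis were negative with a median of -0.09, and Bub1b, a spindle checkpoint kinase, was called (-0.29 ± 0.07, adjusted p = 0.0359). On the left 22 of the 23 fell, against 13.4% of all tested genes, and on the right 4 did, against 4.19%. Without RV WT library 2, 19 of the 23 fell on the right, against 7.12%. In that fit 19 of the 23 differences were negative, with a median of -0.07. Of 23 genes of DNA replication and S phase, 20 were negative with a median of -0.11, and none was called by edgeR, with 6 at an unadjusted p under 0.05 and 1 called by DESeq2. Leaving out that library, 17 of these 23 were negative and the median was -0.065. In the 31 sarcomere genes, Tnni3 was the 1 called with all libraries, and 5 were called without RV WT library 2. All were lower on the left, where 0.973% of all tested genes were with 16 libraries. Without RV WT library 2, 236 of 16638 tested genes were. With 16 libraries no member was called by edgeR among 26 Wnt, 28 collagen and matrix, and 18 erythroid genes, where 6, 7 and 0 had an unadjusted p under 0.05 and DESeq2 called 0, 2 and 0. When that library was left out, edgeR called 2 Wnt genes and 1 matrix gene, all lower on the left.

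**Figure D3:**
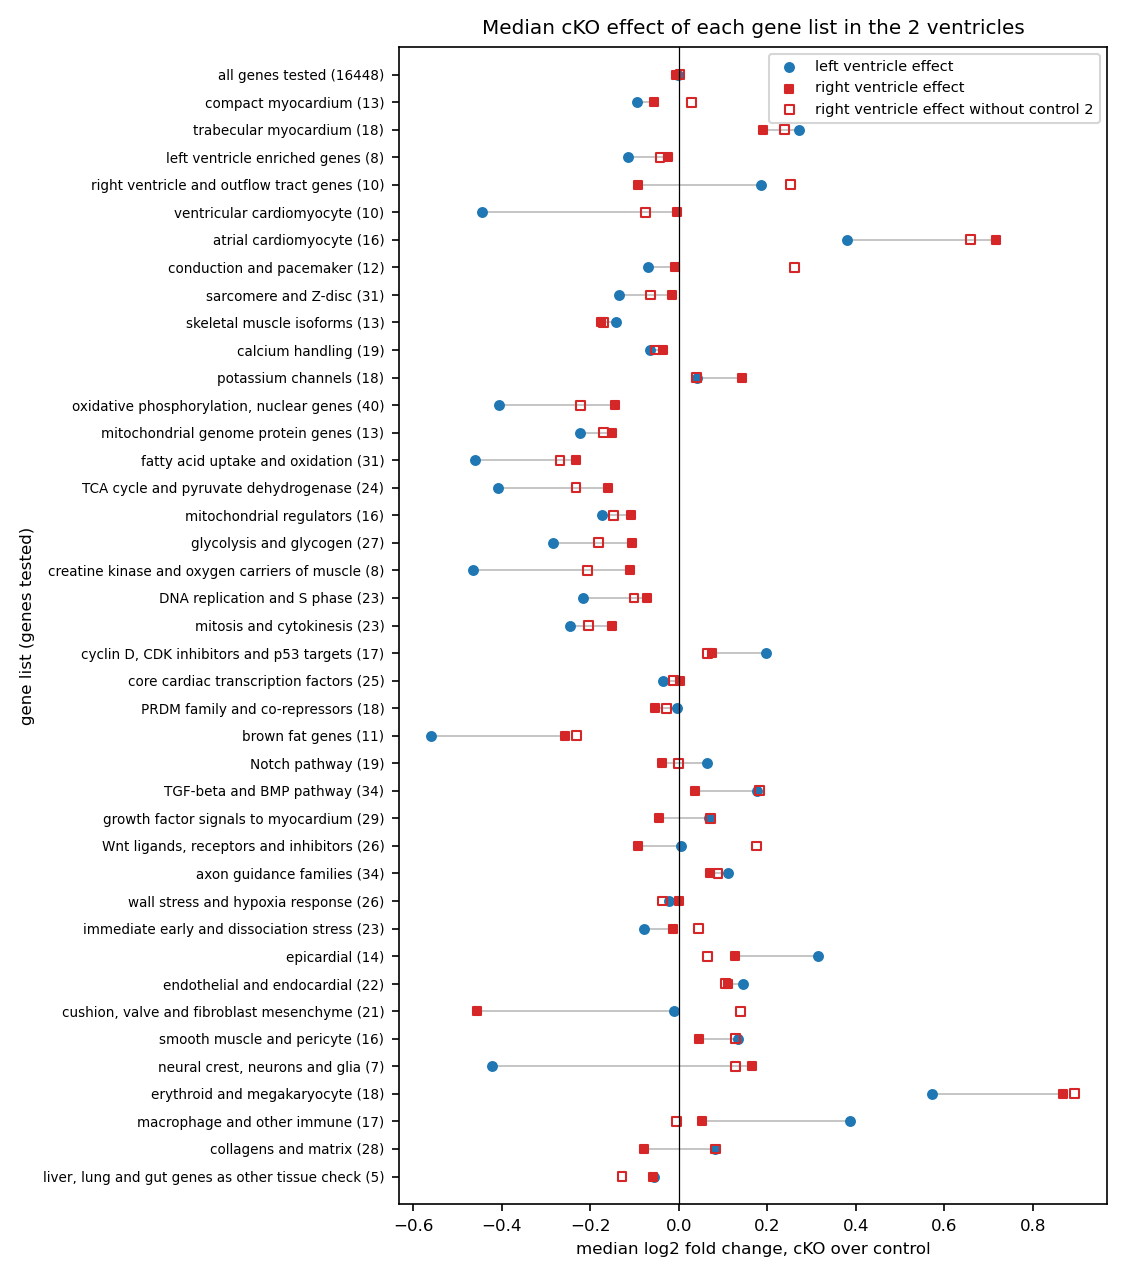
Median cKO effect (x axis, log2 fold change of cKO over control) of each gene list, with the number of tested genes, in the left (circles) and right (filled squares) ventricle; open squares are the right effect without RV WT library 2. The energy lists and the ventricular cardiomyocyte list have left medians below the right ones, and the right median of the mesenchyme list moves across 0 when the library is left out.

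Leaving out RV WT library 2 raised the number of called genes from 236 to 358. Of the 236 genes, 222 were called again (94.1% of the 236 and 62.0% of the 358 called without that library). All 236 kept the sign of their difference, and the largest shift in a difference among them was 0.40. They were chosen in a fit that shares 15 libraries with this one, so their kept signs are no separate support. The largest shift among lists was in the 21 genes of cushion, valve and fibroblast mesenchyme. Their median difference was 0.60 with the library and -0.18 without it, with no member called by edgeR either way, 5 at an unadjusted p under 0.05 with the library, and none called by DESeq2. By class, 151 genes were then called on the left alone, 152 moved the same way and further on the left, 29 were called on the right alone and 12 moved further on the right.

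**Figure D4:**
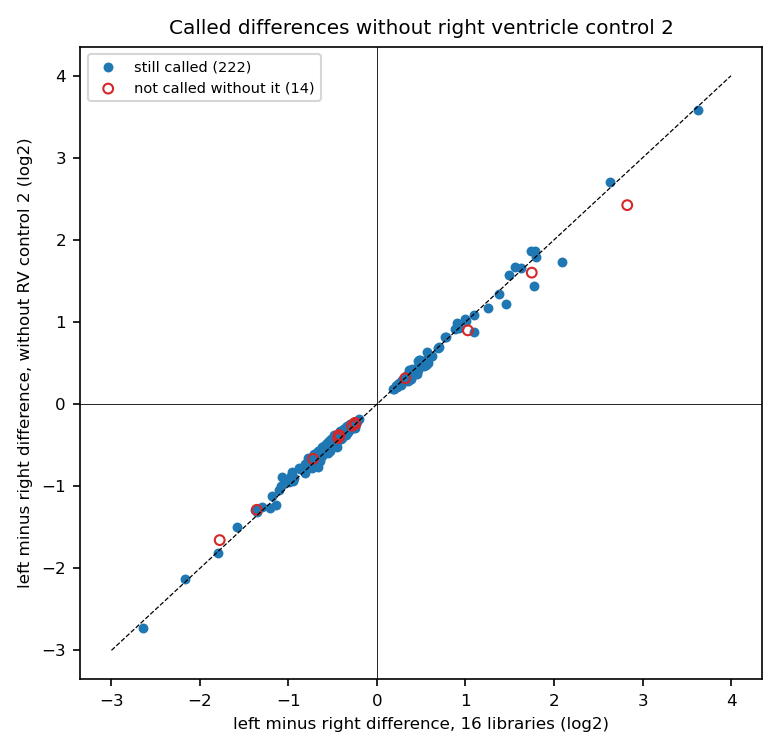
Difference between the ventricles in the cKO effect (log2) of the 236 called genes with all 16 libraries (x axis) and without RV WT library 2 (y axis); the dashed line marks equal values. The 222 genes called again are filled and the 14 that were not are open circles, and all lie in the quadrants of unchanged sign.

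The number of called genes depended on the count scale. With counts rescaled for transcript length 57 genes were called, 39 lower and 18 higher on the left, and with limma on log2(TPM+1) 46 were called, 15 lower and 31 higher, so that the share of lower calls went from 67.8% to 32.6%. All genes shifted on the log2(TPM+1) scale, which had no TMM. The median difference was 0.05 there against -0.001 in the main fit. Of 16448 differences 6110 were negative, against 8254. The part of this shift in the calls was not tested. Leaving out any 1 library gave 125 to 358 called genes.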

How the data were processed

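RNA-seq of 16 isolated ventricles was used, with 14508722 to 22830716 estimated reads per library. Per the submitters' processing notes Salmon 1.2.1 and DESeq2 1.22.2 were used with GRCm38.p6 and mm10; per the labels' protocols, TRIzol RNA with integrity numbers of 6.1 to 10 went into a stranded mRNA kit. The deposited files hold estimated counts and TPM per transcript, which the authors neither log-transformed nor scaled between libraries beyond TPM's own length and library scaling, judged by their values.

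Of 140658 transcripts, 140137 were matched without version to GENCODE M21 and the other 521 (at most 0.168% of a library's reads) were left out. The deposited estimated counts of a gene's transcripts were added up, giving 54356 genes, then rounded. The 16 libraries were fitted with 4 group means in edgeR 4.0.16 (R 4.3.3; quasi-likelihood F test, TMM, filterByExpr), with Benjamini-Hochberg adjustment over 16448 genes and a threshold of 0.05. The SE is the log2 value over the square root of F. Errors are over libraries, and estimated reads without molecular identifiers are not independent molecules. On simulated counts of 16233 genes, 74% of genes with a true difference of 1 log2 unit, 40% of those with 0.5 and 0.03% of unchanged genes were called.

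The genes named were the 8 called protein-coding genes with the most negative and the 8 with the most positive difference at 2 log2 CPM or more, up to 8 opposite genes, up to 4 right-sided ones, up to 2 called members per list and 11 fixed by name. Some results by this rule are not reported here. The other opposite gene and further called members of a list are named because their group is small. The comparison, the lists and this rule were chosen with earlier results of these data known. Alternatives were DESeq2 1.42.0, limma 3.58.1 (voom, and log2(TPM + 1)), other scalings, filters and threshold, the 22 libraries together, replicate blocks and each library left out. Promoters are RefSeq's.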

Additional observations from a re-analysis of the deposited data

Results flagged for a closer look

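In 52 genes named by the rule, and in Epb41l4b, named because its group is small, the test of the difference between the ventricles passed. The left effect was lower by log2 differences of -2.17 for Lrtm1, -1.58 for Aqp4, -1.36 for Ky, -1.30 for Ckm, -1.20 for Lypd6b, -1.18 for Zdhhc23, -1.14 for Dio2, -1.10 for Hey2, -1.09 for Dclk3, -1.07 for Mb and -0.996 for Acss1. Values between -1 and -0.5 were -0.95 for Igfbp2, -0.87 for Kcnk3, -0.81 for Unc13c, -0.75 for Cox7a1, -0.69 for Fhl2, -0.67 for Adamts19, -0.65 for Mycn, -0.58 for Ppargc1a, -0.55 for Plpp2 and -0.53 for Irx4. Smaller ones were -0.47 for Eci1, -0.46 for Tnni3, -0.45 for Jag1, -0.44 for Prdm16, -0.43 for Emp2, -0.37 for Acads, -0.35 for Rab11fip5, -0.35 for Mdh2, -0.34 for Idh3g, -0.34 for Spon1, -0.33 for Hk1, -0.31 for Cox8a, -0.31 for Ccnd2, -0.29 for Bub1b and -0.28 for Gse1. The left effect was higher by 2.10 for Rgs8, 1.80 for Cp, 1.78 for Nt5e, 1.75 for Fgf10, 1.56 for Lrp8, 1.49 for Kcnj8, 1.46 for Pdgfc, 1.26 for Epb41l4b, 1.10 for Cttnbp2, 1.09 for Lama1, 1.01 for Ankrd1, 0.93 for Ryr3, 0.56 for Slit3, 0.52 for Efnb2, 0.37 for Cd47, 0.22 for Mcam and 0.20 for Bmpr1a.

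In 14 of 236 groups of 4 libraries (5.93%), 1 library lay far from the other 3, and chance gives about 5%. RV WT library 2 was low for Eci1 (59.2 CPM) and Hk1 (415 CPM) and high for Cttnbp2 (13.7 CPM) and Pdgfc (14.9 CPM). LV WT library 1 was low for Rab11fip5 (131 CPM) and high for Lama1 (5.2 CPM) and Lrp8 (4.04 CPM). RV cKO library 4 was high for Lypd6b (5.64 CPM), Idh3g (207 CPM) and Rgs8 (6.32 CPM). Single cases were a low Lypd6b in RV WT library 1 (1.28 CPM), a high Mcam in RV cKO library 1 (648 CPM), a high Cd47 in LV WT library 3 (32.0 CPM) and a low Ryr3 in RV cKO library 3 (76.4 CPM).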

How the results depend on the processing

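All 236 differences kept their sign without RV WT library 2, in a fit that shares 15 libraries with the first and is no separate support. Against 236 genes, of which 160 were lower and 76 higher on the left and 9 ran in opposite directions, DESeq2 called 467 genes (300 lower, 167 higher) and limma voom with quality weights 414 (263 lower, 151 higher, 17 opposite). Length-scaled counts called 57 (39 lower, 18 higher, 2 opposite), limma on log2(TPM+1) 46 (15 lower, 31 higher, 1 opposite) and a test beyond 1.2-fold 36 (23 lower, 13 higher, 3 opposite); the last is a stricter question, and for the others the cause was not tested. Leaving out each library in turn gave 125 to 358 genes, 81 to 236 lower, 43 to 122 higher and 4 to 14 opposite. The count moved by over 1.5 times without LV WT library 2 (146), 3 (151) or 4 (137), LV cKO library 2 (135), 3 (125) or 4 (157), RV cKO library 2 (138) or 4 (136), or RV WT library 2 (358). Among named genes the sign reversed for Lrtm1 on log2(TPM+1) (0.82) and for Ccnd2 with length-scaled counts (0.0752) and log2(TPM+1) (0.157). Length-scaled counts kept 20 of the named calls and ended 32, and log2(TPM+1) kept 9 and ended 42. Calls ended by length-scaled counts included those of Irx4, Tnni3, Mb, Acss1, Kcnk3, Ppargc1a, Ryr3 and Ankrd1. On log2(TPM+1) that of Mycn was among those lost. Ckm, Cttnbp2, Fhl2, Hey2, Igfbp2, Kcnj8, Pdgfc and Zdhhc23 stayed called in all 30 alternatives. At this depth differences near 0.5 log2 units were often missed in simulated counts.

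The replicate numbers do not pair the libraries by the labels, and left and right libraries with the same number correlated in their deviations from the group means by 0.053 to 0.237 among cKO (3 of 4 pairs over 0.1) and by -0.115 to 0.094 among control libraries. With the number as a block 225 genes were called (158 lower, 67 higher, 12 opposite), and with a block of genotype and number 196 (139 lower, 57 higher), where no opposite count could be had. The number block ended the calls of Prdm16, Hk1, Ccnd2, Bmpr1a, Mcam and Fgf10, and the genotype and number block those of Lrtm1, Lypd6b, Acads, Hk1, Ccnd2, Bub1b, Bmpr1a, Mcam and Fgf10. Of the 16 libraries 11 correlated best with their own number, a hint from the data and not the design.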
